A study of Mus musculus with 45 samples.

Results

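The genes described here are the 144 mouse genes whose symbol is Zfp followed by a number of 3 digits from 600 upward, out of 22904 genes in the table, measured in pancreatic islets of 3 inbred strains on 2 diets. They were selected by symbol alone, with no threshold on a measured value, but the family itself was picked on earlier results of the same libraries, in which its levels differed between strains. The strain and diet differences below are therefore descriptions of these libraries. Islets came from wild-type females and males of C57BL/6J, the strain of the reference genome, of the wild-derived CAST/EiJ and of the obesity-prone NZO/HlLtJ. From 6 weeks of age the mice ate a control diet (10% fat with fiber) or a diet high in fat and sugar (44% fat with fiber), and islets were collected at 15 weeks. C57BL/6J gave 4 libraries for each sex and diet. CAST/EiJ gave 4 for each, except 3 for control males. NZO/HlLtJ gave 4 for females on each diet and 3 for males on each diet. No label says how many mice went into a library, so the p-values reflect the spread among these 45 libraries, which may be technical.

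Most genes of this family encode proteins with C2H2 zinc fingers, loops in which a pair of cysteines and a pair of histidines hold a zinc ion and neighbouring residues read DNA. Many also carry a KRAB domain, which recruits the corepressor Trim28 and, through it, the histone methyltransferase Setdb1 to silence retrotransposons. Such genes multiply by local duplication, lie in clusters and differ between strains of mice.

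The annotation gives 142 of the 144 genes as protein coding and the other 2, Zfp783 and Zfp939, as transcribed pseudogenes. A search of the annotated coding sequences for the C2H2 pattern found a median of 11 fingers, with a maximum of 33 and none in 6 genes. Clusters were defined as 4 or more of these genes with starts at most 2 Mb apart. By that definition 77 genes lay in 11 clusters and 67 lay alone or in smaller groups, and the median finger number was 12 inside clusters and 8.5 outside. In 7 genes (Zfp600, Zfp708, Zfp747, Zfp781, Zfp935, Zfp955a and Zfp960) at least 50% of the 31-base words of the transcripts also occurred in another gene, so their counts are uncertain.

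The stretches below, read from GENCODE M21 transcripts of GRCm38, show one finger each of the genes on which the strain results turn. For the first 3, the capitals mark the codons of the cysteines and histidines that hold zinc. Zfp607 lies at chr7:27857527-27880825 on the plus strand, and its stretch is in coding exon 4 at chr7:27878113-27878196. Zfp872 lies at chr9:22188168-22202123 on the plus strand, with the stretch in exon 3 at chr9:22199644-22199727. Zfp658 lies at chr7:43562256-43575461 on the plus strand, with the stretch in exon 4 at chr7:43573290-43573373.
Zfp607: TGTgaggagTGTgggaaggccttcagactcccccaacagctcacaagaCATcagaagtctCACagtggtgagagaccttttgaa
Zfp872: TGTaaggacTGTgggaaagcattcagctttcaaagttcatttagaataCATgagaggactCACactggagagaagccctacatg
Zfp658: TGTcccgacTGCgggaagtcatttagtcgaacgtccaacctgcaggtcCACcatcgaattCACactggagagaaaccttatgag
All 3 keep the same spacing between the capitals, while the bases between the second cysteine and the first histidine, which encode the DNA-reading residues, differ. The next pair shows how alike cluster neighbours can be. It is the second finger of Zfp955a (minus strand, exon 4, chr17:33242200-33242283) and of Zfp955b (plus strand, exon 4, chr17:33302432-33302515), with the 5 bases that differ in capitals.
Zfp955a: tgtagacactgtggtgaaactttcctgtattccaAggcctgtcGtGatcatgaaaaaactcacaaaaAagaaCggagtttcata
Zfp955b: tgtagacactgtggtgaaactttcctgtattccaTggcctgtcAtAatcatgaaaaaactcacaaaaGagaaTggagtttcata
Over their whole coding sequences, 1606 of 1635 aligned bases were identical (98.2%).

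Libraries held 57203765 to 109950221 counts, of which the 144 genes together took 0.102% to 0.310%. Levels are given as CPM, the count of a gene divided by the scaled library size. The median gene averaged 9.14 CPM, 9 genes averaged under 1 CPM and 9 averaged at least 50 CPM. Per kilobase of exon, Zfp664 stood at 14 CPM, Zfp652 at 8.01 CPM and Zfp638, a nuclear RNA- and DNA-binding protein that acts in adipocyte differentiation, at 7.08 CPM. The 8 beta cell markers, led by the insulin genes, were present in every group, with median sums between 113112 and 139542 CPM, and acinar markers took 0.0456% to 29.4% of a library. One NZO/HlLtJ library, high-fat male 3, stood apart from the other males: it held 15.3 CPM of Xist, the X-inactivation transcript, against 0.0443 to 4.85 CPM in the other 20 male libraries and 531.5 to 1929 CPM in the 24 female libraries. Results that rest on it are given with and without it.

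Zfp607, a gene with 18 fingers, was near absent from NZO/HlLtJ islets. On the control diet it ran from 2.86 to 5.43 CPM (median 5.02) in C57BL/6J and from 3.64 to 6.59 CPM (median 5.09) in CAST/EiJ. In NZO/HlLtJ the 7 control libraries held 3 counts in all, in 1 library, against 3010 counts in 8 libraries of C57BL/6J. The groups did not overlap. The ratio of C57BL/6J to NZO/HlLtJ was 958 (95% exact interval 328 to 4650, counting error only), and that of CAST/EiJ to NZO/HlLtJ was 1057 (361 to 5128). Over both diets 9 of 14 NZO/HlLtJ libraries were at 0, and 15 of the strain's 24 counts came from high-fat male 3, the library with the raised Xist. The adjusted p was 3.5e-17 against C57BL/6J.

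Zfp872, with 13 fingers, was likewise low in NZO/HlLtJ. On the control diet its level was 2.42 to 6.21 CPM (median 3.81) in C57BL/6J, 1.41 to 2.71 CPM (median 2.04) in CAST/EiJ and 0.0332 to 0.178 CPM (median 0.0874) in NZO/HlLtJ. Every NZO/HlLtJ library lay below every library of the other strains. NZO/HlLtJ fell below C57BL/6J by 5.29 on the log2 scale (SE 0.34, adjusted p = 3.7e-15) and CAST/EiJ by 0.89 (SE 0.25, adjusted p = 0.0038). Exons of Zfp872 overlap 194 bases of an antisense gene, and no label states whether strand was used in counting.

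Zfp783, the pseudogene on chromosome 6, was low in CAST/EiJ instead. On the control diet it ran from 6.84 to 11.2 CPM (median 8.35) in C57BL/6J, from 0.216 to 0.444 CPM (median 0.308) in CAST/EiJ and from 3.11 to 6.88 CPM (median 4.70) in NZO/HlLtJ. The CAST/EiJ libraries lay apart from both other strains, and CAST/EiJ was below C57BL/6J by a log2 fold change of -4.81 (SE 0.30, adjusted p = 7.6e-16). Its 3′ neighbour Zfp956 shares 290 exonic bases with it on the same strand, and it was also lower in CAST/EiJ, at 6.96 to 9.66 CPM (median 8.15) against 11.3 to 17.0 CPM (median 11.6). That difference was -0.62 (SE 0.11, adjusted p = 6.6e-06).

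Zfp658, a many-fingered gene whose human counterpart is known for zinc-responsive transcription, was highest in NZO/HlLtJ. Control levels were 8.70 to 14.1 CPM (median 11.8) there, 5.09 to 8.76 CPM (median 6.33) in C57BL/6J and 3.49 to 5.10 CPM (median 3.86) in CAST/EiJ. NZO/HlLtJ and CAST/EiJ did not overlap, while the lowest NZO/HlLtJ library lay just under the highest C57BL/6J library. The log2 fold change was 0.84 (SE 0.14, adjusted p = 1.2e-05) against C57BL/6J and 1.56 (SE 0.15, adjusted p = 7.1e-11) against CAST/EiJ.

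The near-identical pair went in opposite directions in CAST/EiJ, though Zfp955a is among the genes whose counts are uncertain through shared words. Zfp955a was at 4.68 to 6.47 CPM (median 5.55) in C57BL/6J controls, 1.33 to 2.51 CPM (median 2.048) in CAST/EiJ and 4.03 to 6.23 CPM (median 5.03) in NZO/HlLtJ. Zfp955b was at 4.37 to 6.33 CPM (median 5.56), 6.45 to 9.41 CPM (median 8.41) and 6.36 to 8.85 CPM (median 7.56) in the same order. For both genes the CAST/EiJ range lay outside the C57BL/6J range, below it for Zfp955a and above it for Zfp955b. Against C57BL/6J the log2 fold change in CAST/EiJ was -1.42 (SE 0.11, adjusted p = 4.4e-13) for Zfp955a and 0.58 (SE 0.09, adjusted p = 3.2e-06) for Zfp955b. At the finger printed above the 5 differing bases separate the pair in the reference, and how reads carrying CAST/EiJ variants were assigned between them was not tested.

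**Figure D1:**
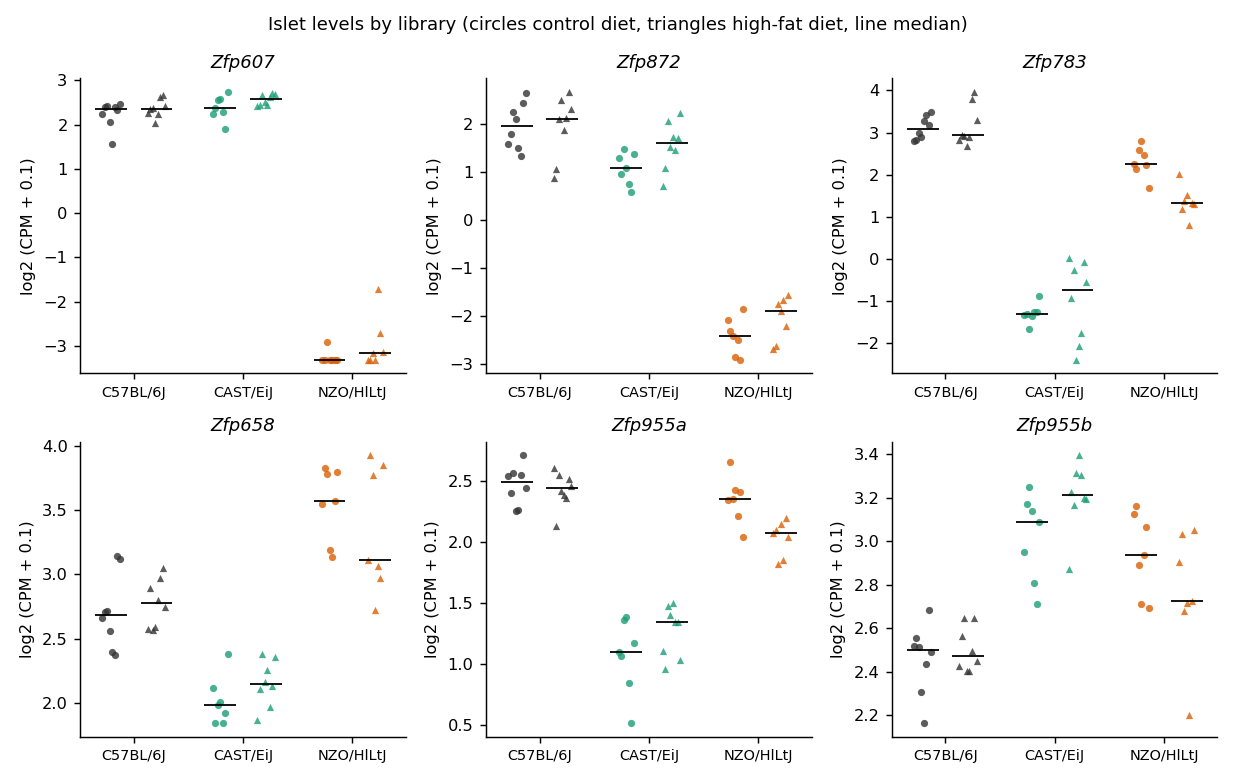
Level of 6 genes by library, as log2 of CPM plus 0.1, with strains on the x axis, circles for the control diet, triangles for the high-fat diet and lines for group medians. Zfp607 and Zfp872 in NZO/HlLtJ and Zfp783 in CAST/EiJ lie apart from the other strains on both diets, and Zfp955a and Zfp955b move in opposite directions in CAST/EiJ.

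Zfp600 was the one gene left out by the filter on low counts in the fit of all libraries. It held 67 counts over the 16 C57BL/6J libraries, 1 count over 15 CAST/EiJ libraries and 0 over 14 NZO/HlLtJ libraries. C57BL/6J was thus at least 20.4-fold higher than NZO/HlLtJ, taking 3 counts over the NZO/HlLtJ group as the limit, and 62.0-fold higher than CAST/EiJ (95% exact interval 10.8 to 2485, counting error only). At least 50% of its words are shared with other genes, so these counts are uncertain.

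Over the family, control-diet levels were lower in NZO/HlLtJ than in C57BL/6J more often than higher. Of 143 genes tested, 8 were higher and 54 lower at an adjusted p under 0.05, which is 62 genes, or 43.4%. Among all 20306 genes tested, 43% passed, 22.7% higher and 20.3% lower, so the total share in the family is near the background while its split between directions is not even. The median log2 fold change was -0.14 in the family and -0.01 over all genes. Beside Zfp607 and Zfp872, the lower genes with the largest changes were Zfp804a (-2.14, SE 0.42), Zfp951 (-1.72, SE 0.21), Zfp874a (-1.47, SE 0.13) and Zfp820 (-1.15, SE 0.15). Among these, Zfp804a, whose human counterpart is known from psychiatric genetics, has a single finger and averaged 0.320 CPM in C57BL/6J, and Zfp874a, a 10-finger gene of the chromosome 13 cluster, ran from 2.96 to 5.50 CPM in NZO/HlLtJ controls and from 9.10 to 14.2 CPM in C57BL/6J controls.

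Higher in NZO/HlLtJ than in C57BL/6J, beside Zfp658, were Zfp750 (0.82, SE 0.26), Zfp949 (0.60, SE 0.12), Zfp773 (0.50, SE 0.19), Zfp955b (0.47, SE 0.10) and Zfp703 (0.45, SE 0.12). Zfp750 is known as a regulator of epidermal differentiation and Zfp703 as a transcriptional corepressor of the NET/NLZ family, and neither has a C2H2 match in its annotated coding sequence. Zfp773 lay near the threshold, with an adjusted p of 0.034, and lost it when any one of 5 libraries was left out or when the run of sample numbers was not in the fit.

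CAST/EiJ against C57BL/6J on the control diet gave 20 higher and 38 lower genes, 58 of 143, or 40.6%, beside 48.5% of all genes (24.6% higher and 23.9% lower). The median log2 fold change was -0.01 in the family and 0.01 over all genes. Among Zfp1 to Zfp599, 20.8% were higher and 27.1% lower. The largest increases were in Zfp811 (0.96, SE 0.18), Zfp647 (0.89, SE 0.12) and Zfp605 (0.82, SE 0.08). Zfp605 ran from 14.4 to 21.7 CPM in CAST/EiJ controls, from 7.93 to 12.4 CPM in C57BL/6J and from 6.03 to 8.37 CPM in NZO/HlLtJ. After Zfp783, the lowest were Zfp781 (-1.85, SE 0.32), Zfp708 (-1.57, SE 0.45), Zfp955a, Zfp750 (-1.29, SE 0.27) and Zfp677 (-1.20, SE 0.09). Zfp781, Zfp708 and Zfp955a are among the 7 genes with uncertain counts.

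NZO/HlLtJ against CAST/EiJ on the control diet gave 27 higher and 56 lower genes, 83 of 143, or 58.0%, beside 54.2% of all genes (27.6% higher and 26.6% lower). Among Zfp1 to Zfp599, 22.7% were higher and 30.0% lower. Zfp811, a 14-finger gene of the second chromosome 17 cluster, was 0.308 to 0.487 CPM in NZO/HlLtJ, 0.570 to 0.944 CPM in C57BL/6J and 1.25 to 2.04 CPM in CAST/EiJ, so that no pair of strains overlapped. Its log2 fold change between NZO/HlLtJ and CAST/EiJ was -1.91 (SE 0.19, adjusted p = 1.4e-10).

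The 3 strain comparisons share libraries, and their calls were combined per gene. In all, 35 genes were lower in NZO/HlLtJ than in both other strains and 5 were higher (Zfp658, Zfp703, Zfp750, Zfp773 and Zfp949). CAST/EiJ had 23 genes lower and 16 higher than both others, and C57BL/6J had 2 lower (Zfp647 and Zfp955b) and 16 higher. At least 1 pair of strains was called in 106 genes, all 3 pairs in 15, and no pair in 37. These combined counts were not made over all genes, so they cannot be set against a background share. In the single pairs 43%, 48.5% and 54.2% of all genes were called. The sample identifiers fall into 3 runs of numbers, and no label says what the runs stand for. Within the runs, the median difference over all 143 genes, on the scale of log2 of CPM plus 0.1, was -0.13, -0.08 and -0.27 between NZO/HlLtJ and C57BL/6J. It was -0.08, 0.10 and -0.15 between CAST/EiJ and C57BL/6J, where the sign differed between runs, and -0.01, -0.22 and -0.12 between NZO/HlLtJ and CAST/EiJ. The narrowest ranges were in Zfp768, Zfp954 and Zfp809, whose highest strain mean was 1.05 times the lowest. Zfp809, known for silencing retroviruses through their primer binding site in stem cells, averaged 11.7, 12.2 and 11.6 CPM in C57BL/6J, CAST/EiJ and NZO/HlLtJ. Its neighbour in the chromosome 9 cluster is Zfp872, with one of the widest ranges of the family.

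By position, the genes of a cluster did not move as a block in most clusters. On chromosome 13 (67038594 to 67687071 in GRCm38, 10 genes) 4 genes were lower and 0 higher in NZO/HlLtJ than in C57BL/6J, and 5 were lower and 0 higher in CAST/EiJ, with medians of -0.41 and -0.34. In the first chromosome 17 cluster (21383748 to 22867134, 11 genes) 6 were lower in NZO/HlLtJ and 3 in CAST/EiJ, with 0 higher in either. In the first chromosome 8 cluster (69226343 to 69791178, 6 genes) 3 were lower in NZO/HlLtJ and 5 in CAST/EiJ, with 0 higher in either. The log2 fold changes of all 6 in CAST/EiJ lay between -0.42 and -0.10. In the second (71882019 to 71993408, 4 genes) 3 were higher in CAST/EiJ. In the cluster of Zfp607 (chromosome 7, 27807196 to 29853669, 6 genes) 2 genes were lower in NZO/HlLtJ, Zfp607 and Zfp940, and the median was -0.06. In the cluster of Zfp872 (chromosome 9, 20581325 to 22307638, 5 genes) Zfp872 was the only gene called in NZO/HlLtJ against C57BL/6J. Outside clusters 4 genes were higher and 24 lower of 66 tested in that comparison. Over all genes 20.3% were lower and 22.7% higher in NZO/HlLtJ than in C57BL/6J, and 23.9% lower and 24.6% higher in CAST/EiJ. In the family the lower shares were 37.8% and 26.6%, with 8 and 20 genes of 143 higher. Whether any cluster differed from these shares was not tested.

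**Figure D2:**
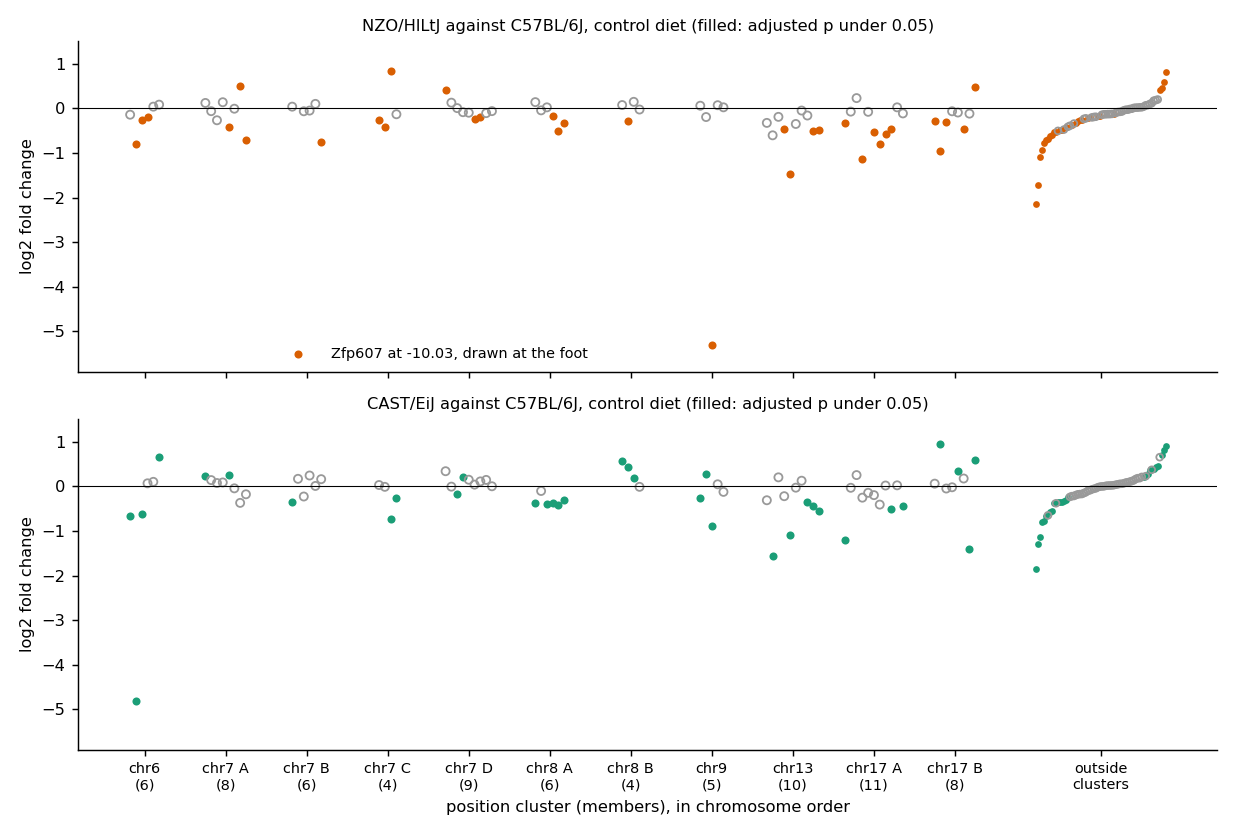
Log2 fold change of each gene on the control diet, NZO/HlLtJ (top) and CAST/EiJ (bottom) over C57BL/6J, by position cluster in chromosome order with the number of genes in brackets; filled points passed an adjusted p of 0.05, and Zfp607 is drawn at the foot of the upper axis. The chromosome 13, first chromosome 17, first chromosome 8 and second chromosome 7 clusters hold filled points below 0 only. Single genes stand apart in the clusters on chromosomes 6, 7 and 9.

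On the high-fat diet the strain comparison with C57BL/6J shifted further down for NZO/HlLtJ. There 7 genes were higher and 108 lower of 143, which is 115, or 80.4%, beside 66.7% of all genes (32.1% higher and 34.6% lower), with a median of -0.41 in the family and -0.05 over all genes. CAST/EiJ against C57BL/6J gave 31 higher and 30 lower, 42.7%, beside 49.6% (24.5% higher and 25.1% lower). NZO/HlLtJ against CAST/EiJ gave 14 higher and 98 lower, 78.3%, beside 70.8% (36% higher and 34.8% lower). Zfp1 to Zfp599 also shifted down in NZO/HlLtJ. Of these genes 11.6% were higher and 64.7% lower than in C57BL/6J, and 13.5% higher and 59.4% lower than in CAST/EiJ.

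Within strains, the high-fat diet went with lower levels in NZO/HlLtJ and with no call in the other strains. In C57BL/6J 0 of 143 genes passed, as did 0 of all 18557 genes tested (0%), with 7 of the family at an unadjusted p under 0.05. DESeq2 also called 0 of the family. In CAST/EiJ 0 of 143 passed beside 0 of 18442 (0%), with 15 at an unadjusted p under 0.05 and again 0 by DESeq2. The median log2 fold changes were 0.03 and 0.07. In NZO/HlLtJ 57 genes were lower and 2 higher of 141 tested, which is 59, or 41.8%, beside 32.9% of all 18517 genes (17.5% higher and 15.3% lower). The median was -0.27 in the family and -0.02 over all genes. Zfp607 and Zfp804a, beside Zfp600, did not pass the filter on low counts in this strain.

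Summed over the family, NZO/HlLtJ levels were 1816 to 2395 CPM (median 2266) on the control diet and 1687 to 2027 CPM (median 1878) on the high-fat diet. The ranges overlapped through 1 control male. The sums were 2211 to 2555 CPM and 2300 to 2618 CPM in C57BL/6J, and 2095 to 2590 CPM and 2375 to 2655 CPM in CAST/EiJ, so that every high-fat NZO/HlLtJ library lay below every library of the other strains. In bulk islets, fewer cells of a type and less RNA per cell cannot be told apart.

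Other Zfp genes fell too. Of 206 genes tested among Zfp1 to Zfp599, 6 were higher (2.91%) and 75 lower (36.4%) on the high-fat diet in NZO/HlLtJ, with a median of -0.21. The share lower was thus near the 40.4% of the family, where 1.42% were higher. Over all genes 17.5% were higher and 15.3% lower.

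**Figure D3:**
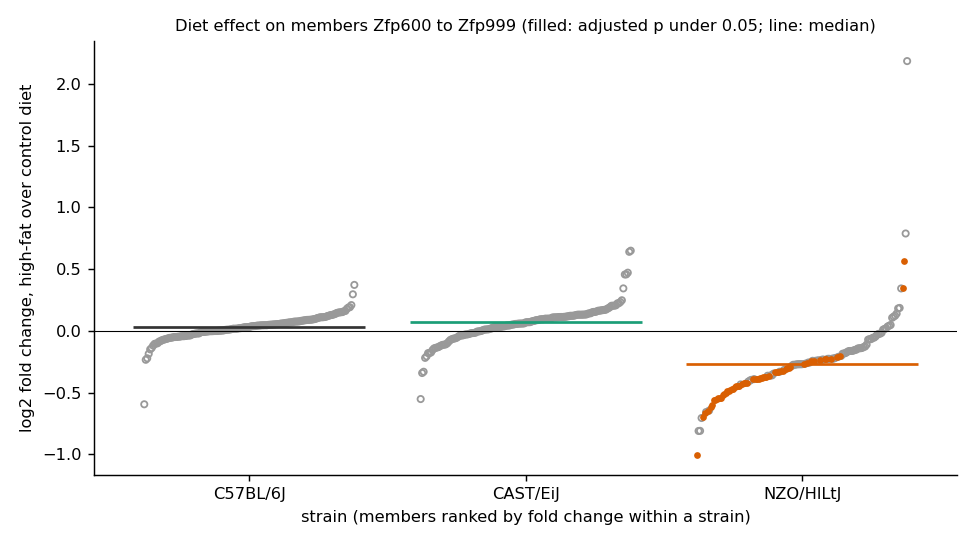
Log2 fold change of high-fat over control diet for each gene, ranked within each strain on the x axis; filled points passed an adjusted p of 0.05 and lines mark medians of 0.03, 0.07 and -0.27. Filled points occur in NZO/HlLtJ alone, 57 below 0 and 2 above; the gene at the top of that strain did not pass.

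The genes that fell with the smallest p in NZO/HlLtJ were Zfp956, Zfp654, Zfp783, Zfp788 and Zfp738. Zfp956 went from 6.93 to 12.8 CPM (median 11.5) on the control diet to 5.41 to 8.81 CPM (median 6.76), a log2 fold change of -0.65 (SE 0.11, adjusted p = 0.0017). Its overlapping neighbour Zfp783 went from 3.11 to 6.88 CPM (median 4.70) to 1.64 to 3.95 CPM (median 2.42), a change of -1.01 (SE 0.19, adjusted p = 0.0027). The diets overlapped for both, since control male 3 lay within the high-fat range.

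Zfp654 went from 23.5 to 41.3 CPM (median 33.4) to 14.4 to 28.5 CPM (median 23.1), a change of -0.54 (SE 0.09, adjusted p = 0.0017). Zfp788, with 23 fingers, went from 13.7 to 21.2 CPM (median 18.3) to 8.37 to 15.3 CPM (median 11.8), a change of -0.60 (SE 0.12, adjusted p = 0.0035). Zfp738, in the chromosome 13 cluster, went from 12.04 to 17.0 CPM (median 14.2) to 7.06 to 12.5 CPM (median 10.3), a change of -0.55 (SE 0.11, adjusted p = 0.0041). In the other strains the high-fat medians of Zfp654, Zfp788 and Zfp738 were at or above the control medians.

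Zfp750 and Zfp703 were the 2 that rose, and both were high in males. On the high-fat diet Zfp750 stood at 5.81 ± 0.65 CPM (SD, n = 3) in NZO/HlLtJ males and at 2.58 ± 1.01 CPM (SD, n = 4) in females, against 2.72 ± 0.77 (SD, n = 3) and 2.59 ± 0.59 (SD, n = 4) on the control diet. Zfp703 stood at 17.8 ± 4.31 CPM (SD, n = 3) in high-fat males and at 8.77 ± 1.88 CPM (SD, n = 4) in high-fat females, against 11.8 ± 1.90 (SD, n = 3) and 8.24 ± 0.51 (SD, n = 4). The 3 high-fat males lay above all other NZO/HlLtJ libraries for both genes. Over both sexes the log2 fold changes were 0.57 (SE 0.18, adjusted p = 0.029) and 0.35 (SE 0.12, adjusted p = 0.038), and in females alone they were -0.26 and -0.03, neither called. The difference between the sexes was not tested. Outside the first run of sample numbers, high-fat males and control females were in run 2, and control males and high-fat females in run 3. Among those libraries the pattern by sex cannot be told apart from the run. Leaving out any one of 7 libraries for Zfp750 and of 8 for Zfp703 took the call away, among them high-fat male 3 (adjusted p of 0.052 and 0.078).

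**Figure D4:**
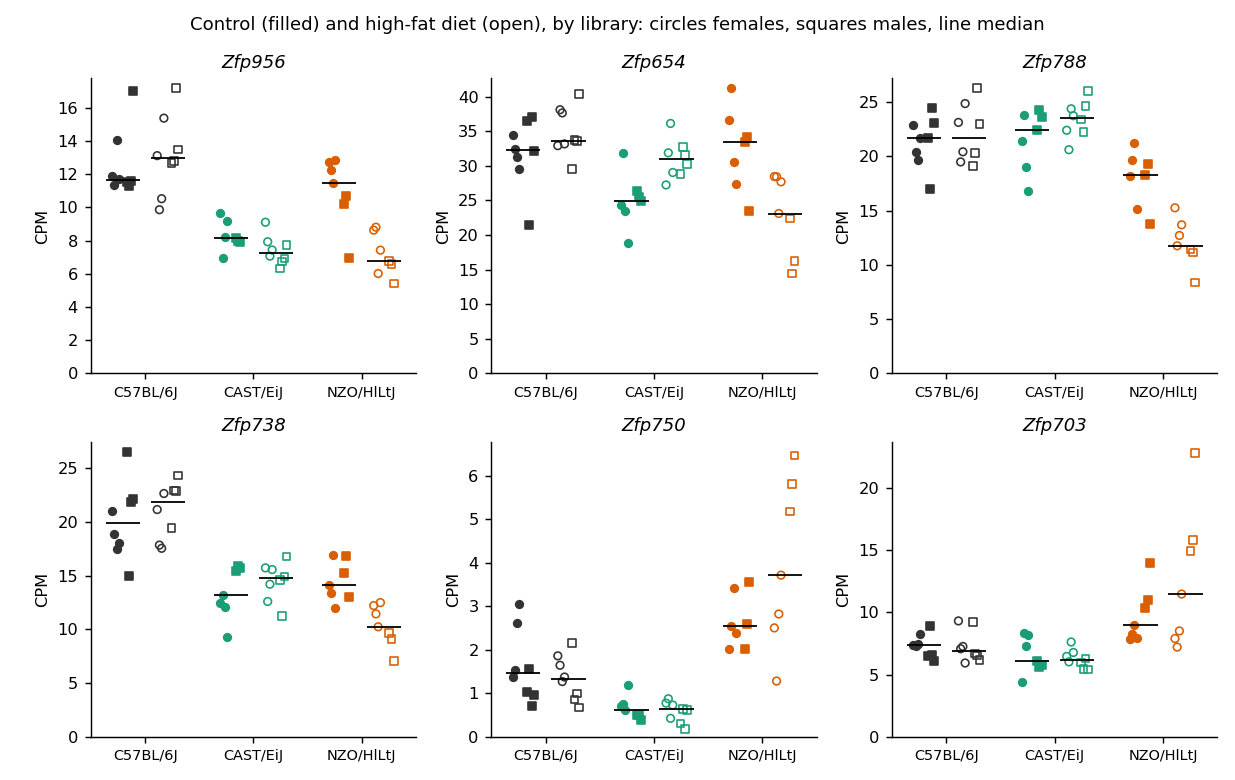
CPM of the genes with the clearest diet calls by library, strains on the x axis, filled for control and open for high-fat diet, circles for females and squares for males, lines for medians. Zfp956, Zfp654, Zfp788 and Zfp738 lie lower on the high-fat diet in NZO/HlLtJ, and Zfp750 and Zfp703 are highest in its high-fat males.

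By position, all 4 genes of the second chromosome 8 cluster fell in NZO/HlLtJ on the high-fat diet, with log2 fold changes from -0.48 to -0.30, where 15.3% of all genes were lower. In the first chromosome 8 cluster 4 of 6 fell, on chromosome 6 4 of 6, on chromosome 13 5 of 10 and in the 2 chromosome 17 clusters 6 of 11 and 5 of 8. In the 4 chromosome 7 clusters 2 of 8, 1 of 5, 2 of 4 and 2 of 9 fell, on chromosome 9 1 of 5, and outside clusters 21 of 65. No cluster held a gene that rose.

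Tested as a difference between strains, the diet effect was lower in NZO/HlLtJ than in C57BL/6J in 44 genes and higher in 1, which is 31.5%, beside 20.3% of all genes (9.65% higher and 10.7% lower). Against CAST/EiJ it was lower in 67 and higher in 2, which is 48.3%, beside 26.4% (12.6% higher and 13.8% lower). Zfp1 to Zfp599 gave similar shares. Against C57BL/6J 30.4% of them were lower and 1.93% higher, and against CAST/EiJ 43.0% were lower and 1.45% higher. Between CAST/EiJ and C57BL/6J 0 of 143 passed, beside 0.0148% of all genes, all of them higher and 0% lower, with 1 of the family at an unadjusted p under 0.05 and 0 by DESeq2. Of the 57 genes that fell in NZO/HlLtJ, 39 were called in the comparisons with both other strains, which share the NZO/HlLtJ libraries. That combined count was not made over all genes, so it has no background share.

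The smallest p in both comparisons were among Zfp788, Zfp799, Zfp871, Zfp956, Zfp729b, Zfp654 and Zfp677. Zfp871, a 15-finger gene of the second chromosome 17 cluster, had medians of 72.2 CPM on the control and 48.6 CPM on the high-fat diet in NZO/HlLtJ, 83.2 and 91.5 CPM in C57BL/6J, and 86.8 and 101.7 CPM in CAST/EiJ. The difference in diet effect was -0.70 (SE 0.15, adjusted p = 0.0018) against C57BL/6J and -0.81 (SE 0.16, adjusted p = 0.00038) against CAST/EiJ. Its neighbour Zfp799 gave -0.50 (SE 0.10, adjusted p = 0.00095) and -0.57 (SE 0.10, adjusted p = 0.00021).

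The higher calls were Zfp607, against both strains, and Zfp831, against CAST/EiJ. The Zfp607 value of 2.88 (SE 0.94, adjusted p = 0.028) against C57BL/6J rests on a strain near 0 counts, and without high-fat male 3 of NZO/HlLtJ it was 1.28 with an adjusted p of 0.29. Leaving out high-fat female 3 gave 2.10 and an adjusted p of 0.22, and leaving out control male 2 gave 2.59 and 0.056. Against CAST/EiJ the value was 2.83 (SE 0.94, adjusted p = 0.024), 1.22 with an adjusted p of 0.28 without high-fat male 3, and 2.051 with 0.21 without high-fat female 3. Zfp831 averaged 0.425 CPM in NZO/HlLtJ, with libraries at 0 in each strain, and its call (3.94, SE 1.37, adjusted p = 0.031) was lost when any one of 5 libraries was left out. Without CAST/EiJ control male 3 it was 1.56 with an adjusted p of 0.50, and without NZO/HlLtJ high-fat female 1 it was 2.41 with 0.22.

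Other cell types' markers moved with the diet in NZO/HlLtJ. The medians of 13 of 13 acinar, 5 of 5 duct, 8 of 8 macrophage, 8 of 8 lymphocyte, 7 of 7 stellate and fibroblast and 6 of 6 cell cycle markers were higher on the high-fat diet, and none of these markers was at 0 in all control libraries. Medians were higher for 4 of 5 endothelial markers, for 1 of 8 beta cell markers and for 1 of 5 markers of other endocrine cells. Summed macrophage markers ran from 55.0 to 241 CPM on the control and from 151 to 778 CPM on the high-fat diet, and lymphocyte markers from 2.404 to 8.64 and from 3.30 to 71.7 CPM. Acinar markers ran from 15818 to 79065 CPM and from 36138 to 167018 CPM, duct markers from 31.4 to 348 and from 140 to 1412 CPM, and stellate and fibroblast markers from 287 to 1240 and from 565 to 3425 CPM. Only the cell cycle sums did not overlap, at 14.5 to 56.4 and 69.7 to 130 CPM. Beta cell markers ran from 105720 to 187821 CPM on the control and from 54740 to 184761 CPM on the high-fat diet. The part of these cells in the decrease of the zinc finger genes was not tested, beyond a fit with the acinar level as a covariate. In that fit 0 genes of the family and 0 of all genes were called, and the family median was -0.33. Among libraries of the other strains, the lowest family sum, 2095 CPM, was in the CAST/EiJ control library with the largest acinar share, 29.4%. In C57BL/6J the lowest sum, 2211 CPM, was in a control male, a group with acinar shares of 1.70% to 7.85%. The largest share of that strain, 21.4%, was in a control female, a group with sums of 2289 CPM or more. These are single libraries, and the relation of the sum to the acinar share was not tested.

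**Figure D5:**
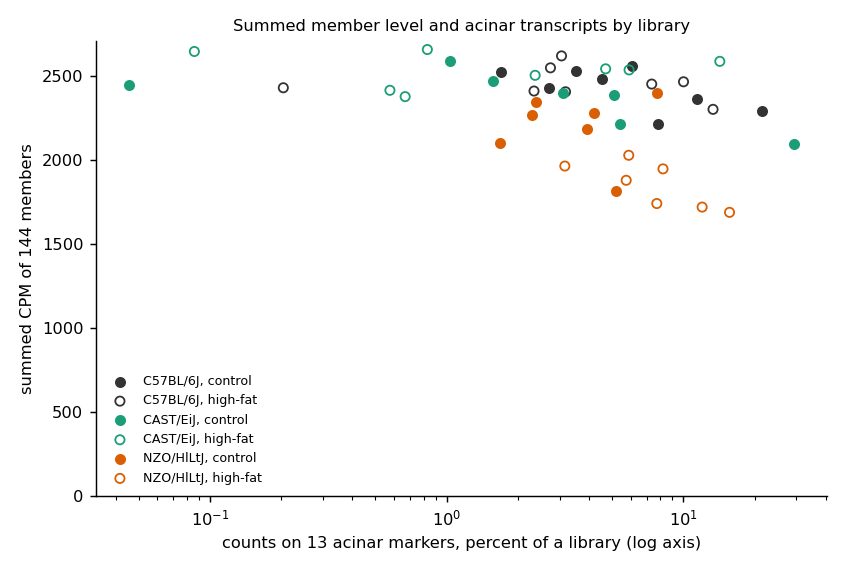
Summed CPM of the 144 genes (y axis) against the percent of counts on 13 acinar markers (x axis, log scale), 1 point a library, filled for control and open for high-fat diet. High-fat NZO/HlLtJ libraries lie between 1687 and 2027 CPM, and the C57BL/6J and CAST/EiJ libraries lie between 2095 and 2655 CPM.

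The NZO/HlLtJ diet effect was also taken for each sex, as a contrast in the same fit of all 14 NZO/HlLtJ libraries. For females, 0 of the family were called (3 of all genes), with a median of -0.26 in the family and -0.01 over all genes. For males, 11 of the family were called, with a median of -0.30 in the family and -0.03 over all genes. Of all 18517 genes, 2520 (13.6%) were called there, 1620 higher and 900 lower. Of the 3 runs of sample numbers, only the first holds all 4 NZO/HlLtJ groups, and that run was fitted alone, on fewer libraries. In that run 0 of the family and 0 of all genes were called, and the median was -0.26 in the family and 0.02 over all genes.

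Leaving out single NZO/HlLtJ libraries gave 26 to 71 called genes in place of 59. The count was 26 without control male 1, 31 without high-fat male 1, 31 without control female 3 and 35 without control male 2.

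Of 28 proteins listed as partners of KRAB zinc fingers in heterochromatin, 26 were found. In NZO/HlLtJ on the high-fat diet 9 of 26 fell and 1 rose, with a median of -0.11. In total 38.5% were called, near the 32.9% of all genes, while the split between directions was uneven. Of the list 34.6% fell and 3.85% rose, beside 15.3% and 17.5% of all genes. The histone methyltransferase Setdb1 fell by 0.20 on the log2 scale (SE 0.07, adjusted p = 0.034), the deacetylase Hdac2 by 0.33 (SE 0.06, adjusted p = 0.0024), the chromatin remodeller Smarcad1 by 0.36 (SE 0.07, adjusted p = 0.0025) and the HUSH subunit Mphosph8 by 0.29 (SE 0.07, adjusted p = 0.0074). Uhrf1, a partner of the maintenance DNA methyltransferase that is made in cycling cells, rose by 1.76 (SE 0.20, adjusted p = 0.0011), beside the higher cell cycle markers given above. Trim28 itself was at 0.06 (SE 0.08, adjusted p = 0.64).

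Between strains on the control diet, 2 of the 26 were higher and 4 lower in NZO/HlLtJ than in C57BL/6J, and 7 were higher and 4 lower in CAST/EiJ. All genes were called at 43% and 48.5% in these comparisons, above the share in the list. Trim28 was higher in CAST/EiJ by 0.35 (SE 0.06, adjusted p = 8.4e-06) and did not pass in NZO/HlLtJ (-0.04, SE 0.06, adjusted p = 0.65). Pphln1, a further HUSH subunit, was lower than in C57BL/6J in both, by -0.53 (SE 0.06) in NZO/HlLtJ and -0.95 (SE 0.06) in CAST/EiJ.

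Between the sexes, 2 genes were higher and 3 lower in males over all strains and diets, 5 of 143 or 3.50%, beside 8.72% of all genes (4.19% higher and 4.53% lower). Zfp820 was higher in males by 0.40 (SE 0.09, adjusted p = 0.0031), and the group means of males exceeded those of females in 6 of 6 pairs of strain and diet. The other higher gene lay in the chromosome 7 cluster of Zfp607, where the largest change was 0.89 and the median 0.01. In NZO/HlLtJ, Zfp607 itself held 24 counts, 15 of them in high-fat male 3. Leaving out 1 library gave 4 to 8 calls. Zfp651 was lower by -0.20 (SE 0.05, adjusted p = 0.0050) and Zfp609, known as a partner of the cohesin loader, by -0.19 (SE 0.05, adjusted p = 0.0087).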

How the data were processed

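Polyadenylated RNA of islets was sequenced as paired reads of 150 bp in 45 libraries, per the labels. Expected counts per gene were deposited by the authors, and 80.6% of the values lay within 1e-06 of a whole number. The build was GRCm38 and DESeq2 is named, per the submitters' processing notes; no label or header names the aligner, the counter or the use of strand. Gene positions were deposited by the authors in Mb. A deposited variance-stabilised table was not used, and 0 other columns of samples were left out.

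Counts were rounded, filtered with filterByExpr (minimum count 10), scaled by TMM and tested with the quasi-likelihood test of edgeR 4.0.16 (R 4.3.3), with the number range of the sample identifiers as a covariate. Benjamini-Hochberg adjustment covered all genes of a contrast, and the threshold was 0.05. Strain, sex and difference-in-diet contrasts used all 45 libraries in 12 groups; diet effects used 16, 15 or 14 libraries of 1 strain. The test was checked on simulated counts. The alternatives were DESeq2 1.42.0, RLE scaling, no filter, no covariate for the number range, an acinar covariate, 1 fit of all libraries for diet, only the 137 genes with under 50% shared words, single sexes or 1 number range (added after seeing the data) and leaving out each library. Total counts of 57203765 to 109950221 per library leave genes under about 0.1 CPM at a few counts.

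The genes and lists were chosen with earlier results of these data known. Named genes were the 6 highest and 6 lowest called genes per strain pair on the control diet, the 5 with the smallest p in each direction for diet effects and their differences, the 3 for sex, 2 per cluster, 3 with the highest levels and 3 with the narrowest strain ranges. Other named genes were chosen after their values were seen. Replicates were numbered in accession order. Between replicate pairs, chi-square divided by its degrees of freedom was 59.1 or more, so no pair looked like 1 library deposited more than once. Of the 144 genes, 48 had exonic overlap with another annotated gene, 14 of them over at least 10% of their exonic bases.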

Additional observations from a re-analysis of the deposited data

Results flagged for a closer look

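Zfp607 stood out in NZO/HlLtJ on both diets because 1 library lay far from the others: control male 1 held 0.0328 CPM with the other 6 at 0, and high-fat male 3 held 0.205 CPM with the others at 0 to 0.0518 CPM. Zfp600 stood out for the same reason in C57BL/6J control male 4, at 0.150 CPM against at most 0.0646 CPM in the other libraries, and in CAST/EiJ high-fat female 4, at 0.00985 CPM, a single count, with the others at 0. In all, 81 groups of 14 genes were examined and 4 gave such a library; chance gives about 1 in 20.

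Differences in diet effect between NZO/HlLtJ and C57BL/6J, tested as such, were 2.88 on the log2 scale for Zfp607, -0.65 for Zfp729b, -0.64 for Zfp788, -0.50 for Zfp799, -0.70 for Zfp871 and -0.66 for Zfp956. Those between NZO/HlLtJ and CAST/EiJ were 2.83 for Zfp607, 3.94 for Zfp831, -0.86 for Zfp654, -0.72 for Zfp677, -0.71 for Zfp788, -0.57 for Zfp799 and -0.81 for Zfp871. The calls of Zfp607 and Zfp831 depended on single libraries, with the values in the account of the diet differences.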

How the results depend on the processing

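The counts of called genes stayed within 1.5 times the reported value under the settings tried in the 6 strain comparisons and the 3 differences in diet effect. For diet in NZO/HlLtJ, 59 became 0 with the acinar covariate. Contrasts of a single sex in the same fit, chosen after seeing the data, gave 0 in females and 11 in males. The first number range, also chosen after seeing the data, was fitted on fewer libraries, with 1 male on each diet. For sex, 5 became 8 with DESeq2; the cause was not tested. In females, Zfp750 (-0.262) and Zfp703 (-0.028) changed sign on the diet. Leaving out 1 library gave 26 to 71 calls for diet in NZO/HlLtJ and 4 to 8 for sex (8 without NZO/HlLtJ high-fat male 2), and 0 for diet in C57BL/6J and CAST/EiJ. Elsewhere it gave 47 to 65 (NZO/HlLtJ against C57BL/6J, control), 55 to 63 (CAST/EiJ against C57BL/6J, control), 75 to 85 (NZO/HlLtJ against CAST/EiJ, control), 33 to 64 and 55 to 76 (differences in diet effect of NZO/HlLtJ against C57BL/6J and CAST/EiJ). No paired analysis was possible because the labels give no replicate numbers shared between groups.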
